A study of Mus musculus with 17 samples.

Results

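The renin-angiotensin enzymes, receptor and peptidases described here are 9 genes taken by symbol from the 21798 genes listed in the expression table: Agt, Ace, Mme, Agtr1a, Enpep, Anpep, Lnpep, Atp6ap2 and Prcp. All 9 were found, and all 9 were among the 16218 genes that passed a filter on low values in at least 3 libraries, set at 0.5 CPM (reads of a gene scaled to the same total in every library). They were taken for their place in the pathway, with earlier results of these data known.

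The apex of the left ventricle was sequenced in bulk from 17 male C57Bl6/J mice, 1 library per mouse, at 3 weeks after surgery. Surgery was performed at 7 to 8 weeks of age. TAC is transverse aortic constriction, a banding of the aortic arch that loads the left ventricle with pressure, and Sham is the operation without the band. 29P is an orally given prodrug of a peptide that mimics the RGD motif and binds αvβ3 integrin, and Veh is saline. The 4 groups were Sham Veh (5 mice: Sham operation, saline), Sham 29P (3 mice: Sham operation, 29P at 50 μg/kg), TAC Veh (3 mice: TAC, saline) and TAC 29P (6 mice: TAC, 29P at 50 μg/kg). Doses were given in 6 gavages over 2 weeks from week 1 after surgery. The study sequenced 20 libraries and removed 3, of which 1 TAC Veh library was left out for clustering with Sham mice, so that the TAC Veh group was in part chosen on its expression profile.

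Angiotensinogen, the product of Agt, is the only precursor of the angiotensin peptides. Renin cuts angiotensin I from it, angiotensin-converting enzyme (ACE) turns angiotensin I into angiotensin II, and angiotensin II raises vascular tone and promotes growth and fibrosis in the heart through the type 1 receptor, Agtr1a in the mouse. Other peptidases trim these peptides: neprilysin (Mme) forms angiotensin 1-7, aminopeptidase A (Enpep) removes the first residue of angiotensin II, aminopeptidase N (Anpep) shortens angiotensin III, and prolylcarboxypeptidase (Prcp) removes the last residue of angiotensin II.

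Before the results, 3 libraries need to be set apart. Each label carries a number, and these numbers fall into 4 runs, with 9 libraries in run 1, 3 in run 2, 2 in run 3 and 3 in run 4. The labels do not say what the numbers or the runs stand for. Of the 8 atrial markers checked, Myl7, Myl4 and Sln were high in all 3 libraries of run 4 and at most 4.43 CPM elsewhere; the left ventricular apex does not contain atrium. Myl7, the atrial myosin light chain, was at 895 CPM in S19 and 723 CPM in S20, both Sham Veh, and at 335 CPM in S18, a TAC 29P library, against at most 1.002 CPM in the other 14 libraries. Bmp10, which is made in the right atrium, was at 514 CPM in S18 alone. Nppa, a natriuretic peptide that the loaded ventricle also expresses, was at 3670 and 3101 CPM in the 2 Sham libraries of run 4 against 130 to 304 CPM in the other 6 Sham libraries, and among TAC libraries it was at 3085 CPM in S18 against 601 to 4498 CPM in the other 8. Markers of ventricular cardiomyocytes were high in all 17 libraries, where the 10 genes of the list summed to between 40018 and 55185 CPM. Where a member's call on CPM is lost or gained without run 4, or its sign turns, the value without it is given.

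The sequences that follow show the 250 bases before the start site of 3 members, those of the largest rise (Ace), of a fall (Mme) and of the level that varied most between libraries (Agt). They are RefSeq sequences on GRCm38.p6, written 5′ to 3′ on the strand of the gene, with matches to TATAAA and GGGCGG in capitals on either strand (TTTATA and CCGCCC on the other strand). The Ace sequence covers chr11:105967698-105967947 on the plus strand, the first of 2 RefSeq starts. The Mme sequence covers chr3:63294961-63295210 on the plus strand, the first of 3 RefSeq starts. The Agt sequence covers chr8:124569707-124569956 on the minus strand.
Ace: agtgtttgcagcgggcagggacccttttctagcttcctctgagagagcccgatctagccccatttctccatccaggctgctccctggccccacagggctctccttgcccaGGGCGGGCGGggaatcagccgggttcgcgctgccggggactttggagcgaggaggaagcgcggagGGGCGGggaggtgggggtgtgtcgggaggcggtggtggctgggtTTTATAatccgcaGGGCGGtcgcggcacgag
Mme: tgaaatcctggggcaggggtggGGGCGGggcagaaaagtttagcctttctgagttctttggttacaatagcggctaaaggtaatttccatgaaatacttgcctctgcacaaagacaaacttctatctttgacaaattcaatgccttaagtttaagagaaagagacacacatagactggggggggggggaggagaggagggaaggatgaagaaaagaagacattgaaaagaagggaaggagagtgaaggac
Agt: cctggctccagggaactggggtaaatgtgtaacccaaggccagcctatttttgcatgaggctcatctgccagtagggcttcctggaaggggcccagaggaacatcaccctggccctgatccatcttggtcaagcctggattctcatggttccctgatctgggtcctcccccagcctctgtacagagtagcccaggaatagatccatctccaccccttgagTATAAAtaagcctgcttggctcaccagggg

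The Agt window held TATAAA beginning 30 bases before the start, no GGGCGG and 0 CpG dinucleotides. The Ace window held 4 matches to GGGCGG, of which a pair overlap, 1 match to TATAAA on the other strand, 31 bases before the start, and 19 CpG. The Mme window held 1 GGGCGG and 2 CpG, unlike those of the other 2 Mme starts, which held 27 CpG and 2 GGGCGG each. Over the 32851 promoter windows of the same length in the RefSeq table the median was 6 CpG, 12.4% held TATAAA and 32.7% held GGGCGG on either strand. A match is a description of these letters and not a bound site. The second Ace start lies inside the gene, at chr11:105975189, where the shorter germ cell form of ACE begins, and gene-level values do not separate the forms. A promoter sequence was found for 8 of the 9 members, and Agtr1a was not matched.

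Levels per length can be compared between genes, though the length used here joins the exons of all annotated forms of a gene. On the scale of mean CPM per kb of exonic sequence (GENCODE vM21 gene models), Sham Veh levels ran from Ace (8.65), Atp6ap2 (8.20), Lnpep (7.36) and Agtr1a (7.13) to Prcp (2.76), Enpep (2.65), Agt (2.57), Anpep (1.80) and Mme (0.792). The first 4 lay within their spread of each other, with SDs of 2.64, 0.753, 0.715 and 1.70 CPM per kb, and so did Prcp and Enpep (SD 0.524 and 0.350). Agt had an SD of 3.41, and without S20 its mean was 1.07 CPM per kb, below Anpep. In TAC Veh, Ace stood at 25.3 ± 5.59 CPM per kb (SD, n = 3), above Atp6ap2 at 11.6 ± 2.47 CPM per kb, and Mme remained the lowest at 0.407 ± 0.092 CPM per kb. The place of Mme depends on its length of 11.5 kb. On CPM its Sham Veh mean of 9.14 was above those of Anpep (7.44) and Agt (4.86).

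In Veh-treated mice, 5 of the 9 members differed between TAC and Sham at an adjusted p of 0.05 or less. Ace, Anpep, Prcp and Atp6ap2 rose and Mme fell, while Agt, Agtr1a, Enpep and Lnpep did not pass. Over all 16218 genes, 22.5% rose and 1.91% fell in this comparison. In 29P-treated mice 6 members passed, with Ace, Anpep, Prcp, Atp6ap2 and Enpep higher and Mme lower after TAC, where 31.4% of all genes rose and 1.12% fell. The tests were limma contrasts on log2 CPM, and p-values were adjusted over all 16218 genes by the method of Benjamini and Hochberg.

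Because so many genes rose on the CPM scale, each rise is read against the shift of all genes. Over all genes the median log2 change was 0.35 in the Veh arm and 0.37 in the 29P arm, and over the 9 members it was 0.25 and 0.64. Mitochondrial-encoded transcripts took 33.5 ± 3.64% of CPM in Sham Veh (n = 5) and 26.1 ± 2.22% in TAC Veh (n = 3), and with totals that exclude them the median change of all genes was 0.19 in the Veh arm and 0.20 in the 29P arm. With TMM factors, which set the bulk of genes to no change (median 0.02 and 0.01), 4.03% of genes rose and 5.49% fell in the Veh arm, and 5.63% and 5.22% in the 29P arm. With these factors the members called were Ace and Mme in the Veh arm and Ace, Anpep, Prcp, Mme and Lnpep in the 29P arm. Only Ace rose and only Mme fell in both arms on both scales. With TMM factors and run together in the model neither passed in the 29P arm (Ace 0.89, adjusted p = 0.0683; Mme -0.75, adjusted p = 0.153), where 0.641% of all genes rose and 0.327% fell.

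**Figure D1:**
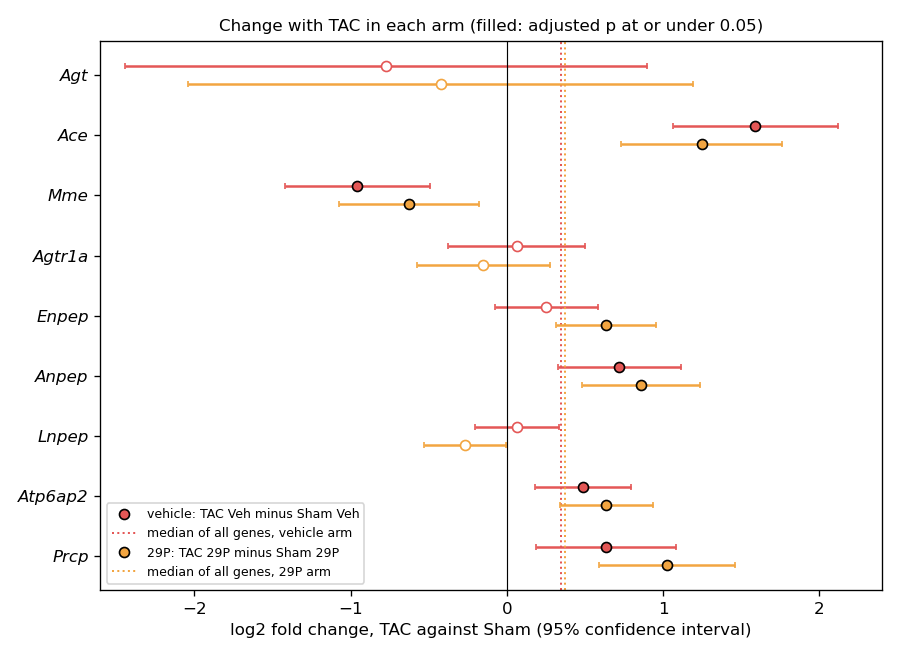
Log2 fold change of each member with TAC, in the Veh arm (red) and in the 29P arm (orange), with 95% confidence intervals; filled points passed an adjusted p of 0.05 and dotted lines are the medians of all genes (0.35 and 0.37). Ace lies to the right of the dotted lines and Mme to the left of 0 in both arms, while the intervals of Agt are the widest.

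Agt lies on chromosome 8 (124556534 to 124569706, minus strand, mm10). In Sham Veh its levels were 1.30, 1.52, 1.09, 4.20 and 16.2 CPM. In Sham 29P they were 1.66, 0.705 and 6.98 CPM. In TAC Veh they were 0.798, 1.27 and 3.95 CPM, and in TAC 29P they ran from 0.996 to 2.08 CPM with a median of 1.51. The groups overlapped throughout, and Agt was the member with the widest spread, 22.96-fold between its lowest and highest library. The log2 fold change with TAC was -0.77 ± 0.79 (SE, adjusted p = 0.471) in the Veh arm and -0.42 ± 0.77 (adjusted p = 0.691) in the 29P arm. Without the libraries of run 4 the Veh-arm value turned to 0.30 (adjusted p = 0.774).

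The spread of Agt followed the runs of label numbers. The 12 libraries of runs 1 and 2 lay between 0.705 and 1.95 CPM and the 5 libraries of runs 3 and 4 between 2.08 and 16.2 CPM, with no overlap. Of all 16218 genes, 62 (0.382%) were likewise higher in each of these 5 libraries. The division follows the levels of Agt itself, so this share does not show how unusual Agt is. None of the other 8 members was divided in this way. The runs hold unequal numbers of each group (5 of the 6 TAC 29P libraries are in run 1), and within runs the TAC minus Sham difference of Agt was -0.22 in run 1, 0.54 in run 2, -0.82 in run 3 and -1.99 in run 4 on the log2 scale. Runs 2, 3 and 4 hold 1 TAC library each, run 3 sets TAC Veh against Sham 29P and run 4 sets TAC 29P against Sham Veh, so that in runs 3 and 4 surgery and drug cannot be told apart.

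Adipose tissue is a known source of Agt, and adipocyte transcripts were also uneven. Of 6 adipocyte markers, Lep and Ucp1 were not analysed here, and the other 4 summed to 8.19 CPM in S20, 5.60 in S18, 2.64 in S15, 1.43 in S19 and 0.480 in S16, against 0.089 to 0.775 CPM in runs 1 and 2. The most abundant, Cidec, reached 3.85 CPM in S20, and the defining marker Adipoq was at 2.298 CPM there. S18 combined a high adipocyte sum with the lowest Agt among these 5 libraries, and S16 had 3.95 CPM of Agt with an adipocyte sum inside the range of runs 1 and 2. The part of adipocytes or atrial tissue in the level of Agt was not tested.

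**Figure D2:**
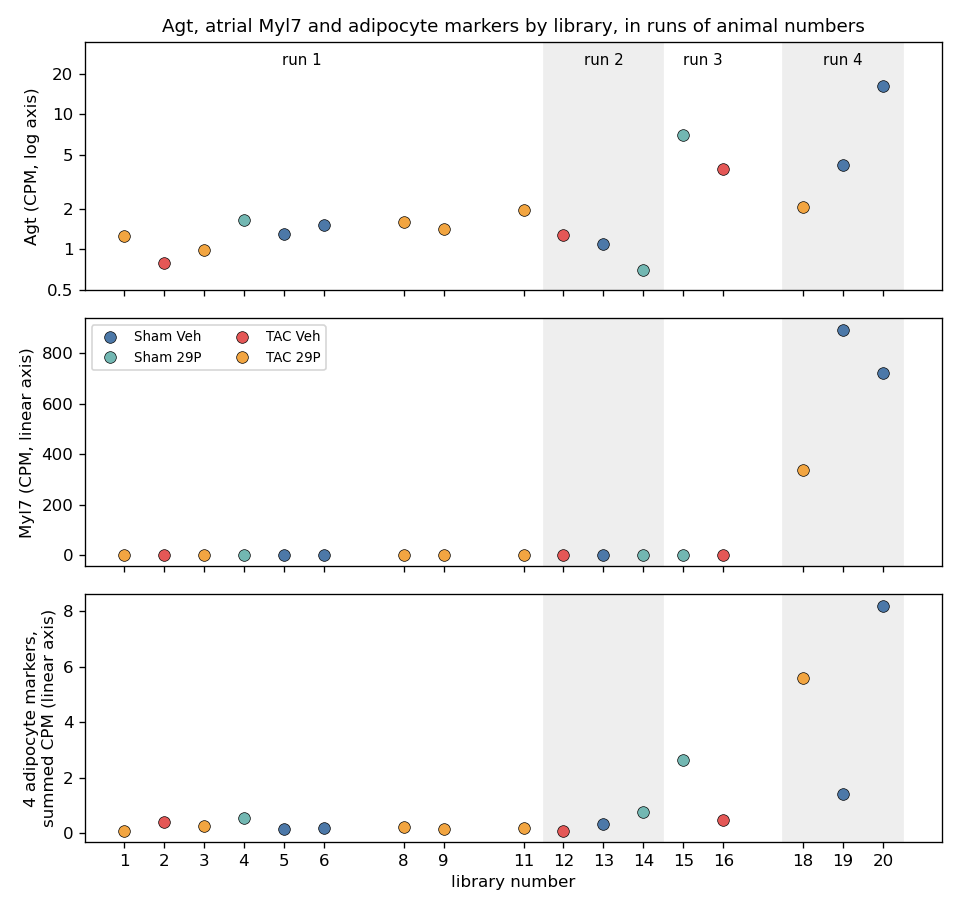
Level of Agt (top, CPM, log axis), atrial Myl7 (middle, CPM) and the sum of 4 adipocyte markers (bottom, CPM) in each library. Libraries are set out by library number and coloured by group, with runs 2 and 4 of label numbers shaded. Agt is at 2.08 CPM or more in the 5 libraries of runs 3 and 4 and at 1.95 CPM or less in the other 12, and Myl7 is high in run 4 only.

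Ace is on chromosome 11 (105967945 to 105989964, plus strand) and is found mainly on endothelial cells. Its levels in Sham Veh were 45.5, 24.6, 58.6, 41.9 and 58.1 CPM. In Sham 29P they were 45.2, 25.7 and 45.3 CPM. In TAC Veh they were 168, 113 and 120 CPM, and in TAC 29P they ran from 72.6 to 108 CPM with a median of 88.3. Every TAC library was above every Sham library, as for 9.52% of all genes tested. The lowest TAC Veh library was at 113 CPM and the highest TAC 29P library at 108 CPM. The share of all genes that divide TAC Veh from TAC 29P in this way was not counted. Ace was 3.01-fold higher with TAC in the Veh arm (log2 1.59 ± 0.25, adjusted p = 0.00137) and 2.37-fold higher in the 29P arm (1.25 ± 0.24, adjusted p = 0.00348). Both calls held on leaving out each of the 17 libraries singly, with an adjusted p of at most 0.0205 in the Veh arm.

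As every TAC library was above every Sham library for Ace, the order within each run of label numbers was fixed and adds no support. The TAC minus Sham differences were 1.41, 1.55, 1.40 and 0.90 on the log2 scale in runs 1 to 4. Runs 2, 3 and 4 hold 1 TAC library each. Runs 3 and 4 cross the 29P and Veh arms, and the other runs hold these arms in unequal numbers. In bulk tissue, a change in the number of cells of a type and a change in RNA per cell cannot be told apart. The 10 endothelial markers, of which Cdh5 is the most abundant, summed to 928 ± 182 CPM in Sham Veh, 819 ± 257 in Sham 29P, 1315 ± 167 in TAC Veh and 1323 ± 195 in TAC 29P (SD, n = 5, 3, 3 and 6). The ratio of Ace CPM to that sum was 5.03 ± 1.63% in Sham Veh, 4.78 ± 0.82% in Sham 29P, 10.1 ± 1.11% in TAC Veh and 6.91 ± 1.46% in TAC 29P. This ratio in each TAC Veh library, 9.12% or more, was above that in each Sham library, 6.65% or less. The TAC 29P libraries, from 5.17 to 9.41%, overlapped both. Gm11651, on the opposite strand, overlaps Ace, and whether the counting used strand is not given in the sources used here.

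Mme is on chromosome 3 (63241537 to 63386030, plus strand) and encodes neprilysin, which also degrades natriuretic peptides and bradykinin. Its levels in Sham Veh were 12.5, 8.01, 9.89, 8.44 and 6.89 CPM. In Sham 29P they were 11.02, 11.4 and 11.7 CPM. In TAC Veh they were 3.49, 5.53 and 5.07 CPM, and in TAC 29P they ran from 5.13 to 10.3 CPM with a median of 7.54. The highest TAC Veh library was at 5.53 CPM and the lowest Sham library at 6.89 CPM. The share of all genes that divide TAC Veh from Sham in this way was not counted. The TAC 29P libraries overlapped Sham Veh and TAC Veh. Mme fell by 0.96 on the log2 scale in the Veh arm (SE 0.22, adjusted p = 0.00823) and by 0.63 in the 29P arm (SE 0.21, adjusted p = 0.0355).

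The fall of Mme was less even between libraries than the rise of Ace. Within runs 1 to 3 the TAC minus Sham differences were -0.75, -0.94 and -1.21 on the log2 scale, and in run 4 the difference was 0.43. Run 3 sets TAC Veh against Sham 29P, and run 4, with atrial transcripts, sets 1 TAC 29P library against 2 Sham Veh libraries, so that these values are not the surgery effect alone. When run was added to the model the change in the 29P arm was -0.45 (adjusted p = 0.252), and leaving out S14, S15, S3, S9 or S11 singly also took its adjusted p above 0.05, to at most 0.123. In the Veh arm only the fit without S2 did so (-0.76, adjusted p = 0.0775).

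**Figure D3:**
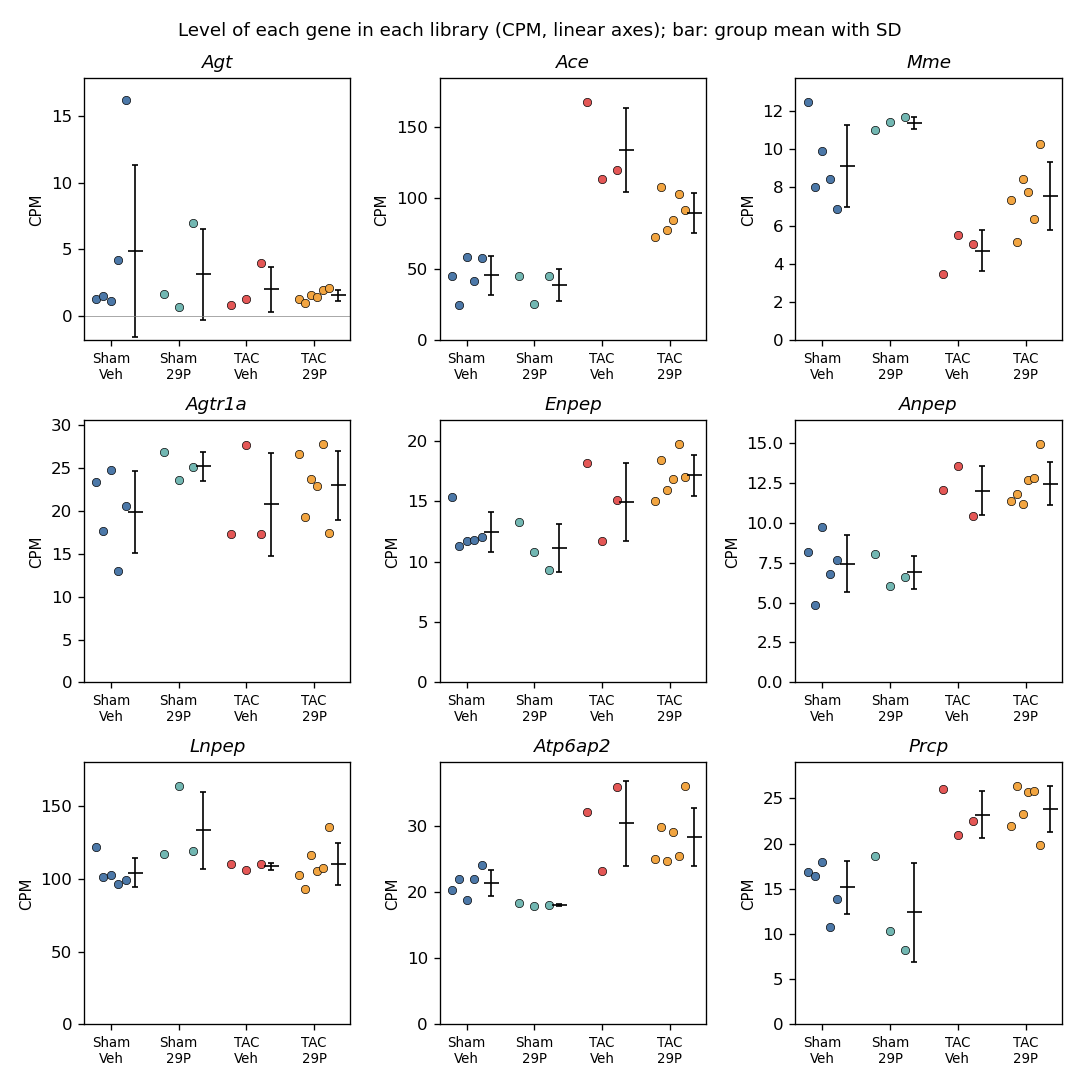
Level of each of the 9 genes in CPM (linear axes) in each library of Sham Veh (n = 5), Sham 29P (3), TAC Veh (3) and TAC 29P (6), with the group mean and SD beside the points. Ace, Anpep and Prcp show no overlap between TAC and Sham, Mme is lowest in TAC Veh, and Agtr1a overlaps in all groups.

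Agtr1a, the main angiotensin II receptor of the mouse heart, is on chromosome 13 (30336441 to 30382867, plus strand). Its levels were 23.4, 17.7, 24.8, 12.96 and 20.5 CPM in Sham Veh and 26.8, 23.5 and 25.2 CPM in Sham 29P. They were 17.3, 27.7 and 17.3 CPM in TAC Veh, and 17.4 to 27.8 CPM with a median of 23.4 in TAC 29P. The 4 groups overlapped. The log2 fold change with TAC was 0.06 (95% confidence interval -0.38 to 0.50) in the Veh arm and -0.15 (-0.58 to 0.28) in the 29P arm. With TMM factors the values were -0.27 (adjusted p = 0.422) and -0.52 (adjusted p = 0.0913), and the sign in the Veh arm turned. Gm48161 overlaps Agtr1a on the same strand.

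Among the aminopeptidases, Anpep, on chromosome 7 (79821803 to 79861059, minus strand), gave the largest separation. Its levels were 8.16, 4.83, 9.74, 6.79 and 7.69 CPM in Sham Veh and 8.02, 6.06 and 6.57 CPM in Sham 29P. They were 12.02, 13.5 and 10.4 CPM in TAC Veh, and 11.2 to 14.9 CPM with a median of 12.2 in TAC 29P. Every TAC library was above every Sham library. Anpep rose 1.65-fold in the Veh arm (log2 0.72 ± 0.19, adjusted p = 0.0145) and 1.81-fold in the 29P arm (0.86 ± 0.18, adjusted p = 0.00468). With TMM factors the change was 0.39 (adjusted p = 0.107) and 0.49 (adjusted p = 0.0367), and the 29P-arm value with TMM did not pass without run 4 (0.44, adjusted p = 0.0682) or with run in the model (0.57, adjusted p = 0.0769). Without S2 or S12 the Veh-arm call on CPM was lost as well, at an adjusted p of up to 0.0739.

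Enpep lies on chromosome 3 (129269175 to 129332720, minus strand). Its levels were 15.4, 11.3, 11.7, 11.8 and 12.04 CPM in Sham Veh and 13.3, 10.8 and 9.33 CPM in Sham 29P. They were 18.2, 11.7 and 15.1 CPM in TAC Veh, and 15.1 to 19.7 CPM with a median of 16.9 in TAC 29P. TAC Veh overlapped Sham Veh. Enpep rose 1.55-fold in the 29P arm (log2 0.64 ± 0.15, adjusted p = 0.00841) and its value was 0.25 ± 0.16 (adjusted p = 0.228) in the Veh arm. The difference between the arms, 0.38 ± 0.22, did not pass (adjusted p = 0.998). With TMM factors the 29P-arm value was 0.27 (adjusted p = 0.173) and the Veh-arm value -0.08, with the sign turned. When run was added to the model on CPM, the 29P-arm value was 0.44 and the call was lost (adjusted p = 0.106). Gm42628 overlaps Enpep on the opposite strand.

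Lnpep, on chromosome 17 (17521410 to 17625050, minus strand), encodes insulin-regulated aminopeptidase, the binding site of angiotensin IV, which also travels with the insulin-responsive glucose transporter. Its levels were 122, 101, 102, 96.5 and 99.1 CPM in Sham Veh and 117, 163 and 119 CPM in Sham 29P. They were 110, 106 and 110 CPM in TAC Veh, and 92.6 to 135 CPM with a median of 106 in TAC 29P. S14, a Sham 29P library with the lowest depth (14.2 M reads) and the highest share of mitochondrial-encoded transcripts (40.0%), stood above all others. The change with TAC was 0.06 ± 0.13 (adjusted p = 0.720) in the Veh arm and -0.27 ± 0.12 (adjusted p = 0.0997) in the 29P arm. With TMM factors these became -0.27 (adjusted p = 0.291) and -0.63 (adjusted p = 0.0149), so that Lnpep was called lower in the 29P arm on that scale and its sign in the Veh arm turned. The 29P-arm value on CPM passed once S18, the highest TAC 29P library and one with atrial transcripts, was left out (-0.33, adjusted p = 0.0411), and likewise without all of run 4 (-0.33, adjusted p = 0.0468). Without S14 it was -0.11 (adjusted p = 0.555).

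Atp6ap2, on the X chromosome (12587801 to 12617049, plus strand), encodes the prorenin receptor, which is also an accessory subunit of the vacuolar proton pump. Its levels were 20.4, 21.97, 18.9, 22.03 and 24.1 CPM in Sham Veh and 18.3, 17.9 and 18.1 CPM in Sham 29P. They were 32.2, 23.3 and 35.9 CPM in TAC Veh, and 24.7 to 36.1 CPM with a median of 27.3 in TAC 29P. Of the 9 TAC libraries, only S12, a TAC Veh library at 23.3 CPM, fell within the Sham range. Atp6ap2 rose 1.40-fold in the Veh arm (log2 0.49 ± 0.15, adjusted p = 0.0261) and 1.55-fold in the 29P arm (0.64 ± 0.14, adjusted p = 0.00619). The excess over the median of all genes was 0.14 and 0.26, and with TMM factors neither call remained (adjusted p = 0.559 and 0.235). On CPM the Veh-arm call was also lost without S2 (0.43, adjusted p = 0.133), without S16 (0.36, adjusted p = 0.121) and with totals that exclude mitochondrial-encoded genes (0.33, adjusted p = 0.120).

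Prcp lies on chromosome 7 (92874470 to 92934583, plus strand). Its levels were 16.8, 16.4, 17.9, 10.7 and 13.9 CPM in Sham Veh and 18.6, 10.4 and 8.21 CPM in Sham 29P. They were 26.1, 20.98 and 22.6 CPM in TAC Veh, and 19.8 to 26.3 CPM with a median of 24.5 in TAC 29P. Every TAC library was above every Sham library, and the spread was widest in Sham 29P. Prcp rose 1.55-fold in the Veh arm (log2 0.63 ± 0.21, adjusted p = 0.0402) and 2.03-fold in the 29P arm (1.03 ± 0.21, adjusted p = 0.00390). The Veh-arm call was close to the threshold: it was lost without run 4 (0.44, adjusted p = 0.163), with TMM factors (0.30, adjusted p = 0.314), and on leaving out S2, S6, S8, S9, S12, S16, S19 or S20 singly, at an adjusted p of at most 0.178. In the 29P arm Prcp passed with TMM factors as well (0.66, adjusted p = 0.0269), but not with TMM and run together (0.52, adjusted p = 0.104). 9530078K11Rik overlaps Prcp on the same strand, as Gm44974 overlaps Anpep and Gm49784 overlaps Lnpep.

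Ace, Anpep and Prcp were thus the 3 of 9 members in which all 9 TAC libraries exceeded all 8 Sham libraries, a property of 9.52% of all genes tested. No member was lower in every TAC library, against 0.216% of all genes.

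**Figure D4:**
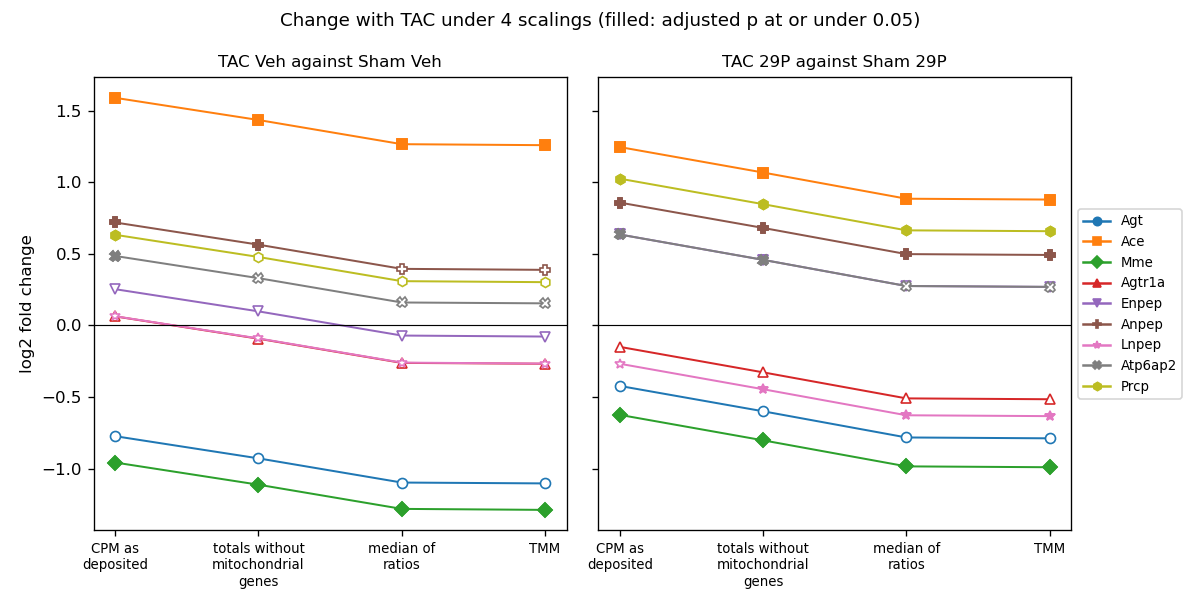
Log2 fold change with TAC of each member under 4 scalings of the same values, in the Veh arm (left) and the 29P arm (right); filled symbols passed an adjusted p of 0.05. Every line falls by about the same amount from CPM to TMM, which takes Enpep, Lnpep and Agtr1a across 0 in the Veh arm and leaves Ace above and Mme below 0 in both arms.

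The effect of 29P within TAC was the comparison of TAC 29P (n = 6) with TAC Veh (n = 3), which shares its libraries with the comparisons above. No gene of the 16218 passed an adjusted p of 0.05 in it (0%), and at an unadjusted p of 0.05, 1.05% were higher and 0.931% lower. At that unadjusted threshold Ace was lower with 29P (log2 -0.57 ± 0.24, 1.48-fold, adjusted p = 1) and Mme was higher (0.68 ± 0.21, 1.60-fold, adjusted p = 1). The other 7 members had log2 differences between -0.09 (Atp6ap2) and 0.22 (Enpep). The 95% confidence interval was -0.40 to 0.47 for Prcp and -0.33 to 0.43 for Anpep.

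Both differences leaned on S2, the TAC Veh library with the highest Ace and the lowest Mme. Without S2 the values were -0.39 for Ace and 0.48 for Mme, and neither passed the unadjusted threshold. Ace no longer passed it on leaving out S1 (-0.51) or S8 (-0.53) either, nor in a model that also held the run (-0.62), while Mme passed in that model (0.86). Within run 1, with S2 as its only TAC Veh library, the 5 TAC 29P libraries were lower by 0.93 for Ace and higher by 0.98 for Mme on the log2 scale. The ratio of Ace to Mme CPM within a library was 5.21 ± 2.12 in Sham Veh, 3.41 ± 1.01 in Sham 29P, 30.7 ± 15.03 in TAC Veh and 12.7 ± 4.90 in TAC 29P. It ran from 20.5 to 48.0 (S2) in TAC Veh and from 8.96 to 21.1 in TAC 29P, where S3 overlapped TAC Veh. The ratio restates the levels of Ace and Mme and is not separate evidence. Red blood cell transcripts summed to 3800.5 ± 1039 CPM in TAC Veh and 1956 ± 1152 CPM in TAC 29P. They were highest in S2 (4992 CPM) and, among TAC 29P libraries, in S3 (4151 CPM). Their part in these differences was not tested.

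In Sham mice, 29P against Veh gave 1 gene of 16218 at an adjusted p of 0.05 (0.00617%), which was not a member. At an unadjusted p of 0.05, 1.6% of genes were higher and 5.89% lower. Of the members only Lnpep passed that threshold, being higher with 29P (log2 0.34 ± 0.13, adjusted p = 0.651), and without S14 its value was 0.18 and did not pass. Prcp, at -0.36, passed that threshold without run 4 (-0.55), S19 (-0.47) or S4 (-0.69), Mme (0.35) without S5 (0.46) and Agtr1a (0.38) without S13 (0.47) or with TMM factors (0.44). The difference between the 29P and Veh arms in the change with TAC passed an unadjusted p of 0.05 for 0 members and for 2.84% of all genes, and no member passed after adjustment. Single libraries decided this count too: Prcp (0.39) passed the unadjusted threshold without run 4 (0.64) or S4 (0.73), Enpep without S4 (0.52) or S2 (0.53), and Lnpep without S5, S4, S15 or S18 (-0.42 to -0.39). The smallest p-values were those of Lnpep (difference -0.33 ± 0.18, adjusted p = 0.998) and Enpep (above), and for Ace the difference was -0.35 with a 95% confidence interval of -1.08 to 0.39.

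A list of 24 other genes of the system was drawn from the pathway's annotated members and close relatives. Of these, 16 were listed in the file and all 16 passed the filter, and Ren1, Agtr1b, Agtr2, Mrgprd, Ctsg, Klk1, Bdkrb1 and Kng1 were not analysed here. In the Veh arm 7 of the 16 rose with TAC, none fell and 9 did not pass, where 22.5% of all genes rose, and in the 29P arm 9 rose, none fell and 7 did not pass, where 31.4% of all genes rose. With TMM factors 1 and 2 of the 16 rose, beside 4.03% and 5.63% of all genes. The list's median log2 fold change was 0.52 and 0.41, beside 0.35 and 0.37 over all genes.

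On CPM 7 of these genes rose in both arms, and with TMM factors only Dpp3 did. Dpp3, a cytosolic dipeptidyl peptidase that degrades angiotensin II, went from 11.98 ± 3.15 CPM in Sham Veh to 22.97 ± 3.43 in TAC Veh (log2 0.97 ± 0.20, adjusted p = 0.00539) and from 11.015 ± 2.85 to 19.96 ± 1.37 CPM in the 29P arm (0.89 ± 0.20, adjusted p = 0.00604). Dpp3 was also called with TMM factors in both arms (adjusted p = 0.0172 and 0.0397). Cathepsin A (Ctsa) rose by 0.62 and 0.66, cathepsin D (Ctsd) by 0.52 and 0.49, prolyl endopeptidase (Prep) by 0.47 and 0.37, endothelin-converting enzyme (Ece1) by 0.52 and 0.44, neurolysin (Nln) by 0.56 and 0.31 and the receptor-associated protein Agtrap by 0.38 and 0.33 on the log2 scale. With TMM factors none of these 6 passed in either arm, and Agtrap and Nln were at -0.04 and -0.06 in the 29P arm. On CPM the 29P-arm call of Nln lay at the threshold (adjusted p = 0.05). The counts of 7 genes in both arms and 9 in the 29P arm include it. Thimet oligopeptidase (Thop1) rose by 0.92 (adjusted p = 0.00765) and aminopeptidase B (Rnpep) by 0.67 (adjusted p = 0.0106) in the 29P arm. Their Veh-arm values were 0.57 (adjusted p = 0.0657) and 0.48 (adjusted p = 0.0539). With TMM factors Thop1 passed in the 29P arm (0.555, adjusted p = 0.0448) and Rnpep did not (0.306, adjusted p = 0.121).

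Without run 4, Dpp3 and Nln were still called in the Veh arm, while Agtrap (adjusted p = 0.0873), Ctsa (0.0578), Ctsd (0.0526), Prep (0.0522) and Ece1 (0.0534) were not, and in the 29P arm Nln was not (0.0738). These counts fell with those of all genes in some fits. In the Veh arm none of the 16 passed without S2, where 2.6% of all genes rose. In the 29P arm none passed without S14, where 6.41% rose, or in a model that also held the run, where 4.19% rose and 0.166% fell. Mas1, the receptor of angiotensin 1-7, was at or below 1.18 CPM in all libraries and at 0 in S3 and S14, too low for a fold change.

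**Figure D5:**
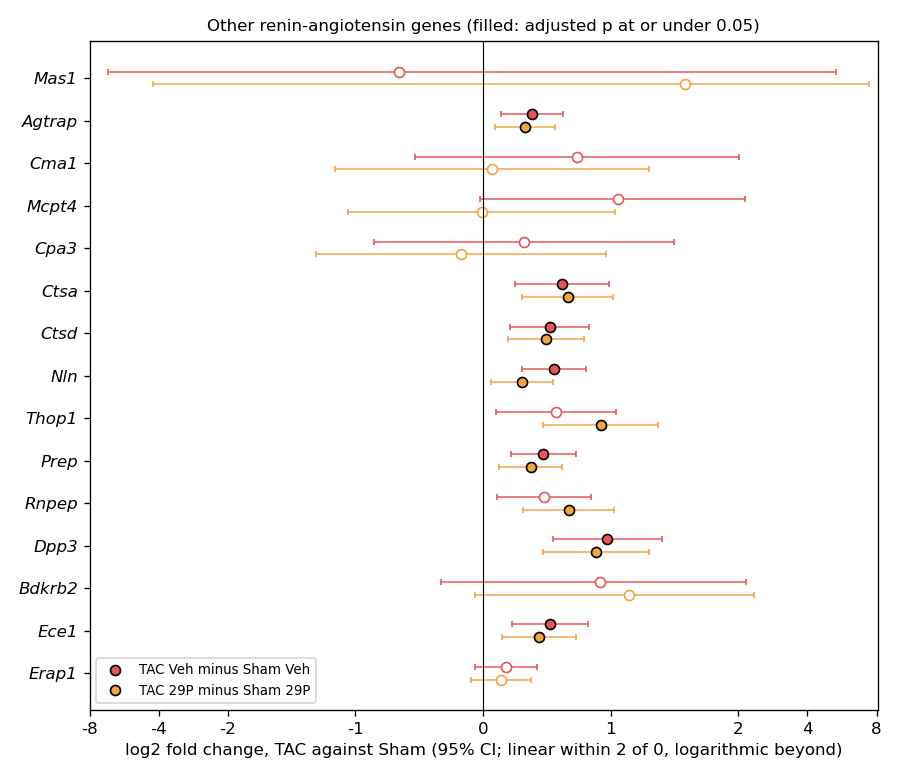
Log2 fold change with TAC of other renin-angiotensin genes, in the Veh arm (red) and the 29P arm (orange), with 95% confidence intervals on an axis that is linear within 2 of 0 and logarithmic beyond; filled points passed an adjusted p of 0.05. Dpp3 has the highest filled value in the Veh arm (0.97), and Mas1, at or below 1.18 CPM, has the widest intervals.

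The genes whose levels varied most like each member called in the Veh arm, over the 17 libraries after taking out group means, were sought among 10670 genes with a mean of at least 5 CPM. They were Tcf25 (Pearson's r = 0.96), Diaph1 and Ski for Ace, and Steap3 (r = 0.97), Spin1 and Tbl2 for Anpep. They were Cald1 (r = 0.95), Rian and Mfsd6 for Atp6ap2, and Cdyl (r = 0.92), Mmd and Sgsh for Prcp. Mme had weaker neighbours in Crybg3 (r = 0.82), Ecpas and Krit1. Between members, the highest such value was 0.72 for Ace with Anpep and the lowest -0.75 for Agtr1a with Atp6ap2. These values describe libraries that also share depth and composition.

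Markers of other cell types moved with TAC beside these genes. The 10 fibroblast markers, led by Dcn, summed to 1350 ± 283 CPM in Sham Veh and 3509 ± 908 in TAC Veh, and to 1035 ± 162 in Sham 29P and 2827 ± 1019 in TAC 29P. The 10 macrophage markers, led by Lyz2, summed to 354 ± 22.6 and 620 ± 139 CPM in the Veh arm and to 300 ± 111 and 540 ± 49.4 CPM in the 29P arm. The 10 markers of pericytes and smooth muscle, led by Rgs5, summed to 1338 ± 177 and 1748 ± 229 CPM in the Veh arm and to 1375 ± 132 and 1653 ± 87.0 CPM in the 29P arm. In the Veh arm these sums overlapped, with S12 (TAC) at 1488 CPM and S20 (Sham) at 1519 CPM. None of the genes in these 3 lists was at 0 in all libraries. Their part in the changes of Ace, Anpep, Prcp, Mme and the peptidases was not tested.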

How the data were processed

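RNA-sequencing libraries (polyA RNA, 1 per mouse) were compared between 4 groups taken from the labels. Per the submitters' processing notes, STAR 2.3.7, Partek and the mm10 build were used, and the authors deposited CPM values with 0.0001 added; a DESeq2 analysis stated by the authors was not used. The counting tool and strand setting are not given in the sources used here. Depth, estimated from the step between low values, was 14.2 to 23.8 M reads per library; the share of low values lying within 0.02 reads of a multiple of it was only 78.6 to 81.8%, so counts were not restored, and this depth is an estimate.

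Log2 of the deposited CPM was fitted with limma 3.58.1 in R 4.3.3 (1 mean per group, all 17 libraries, eBayes with a trend) for 16218 genes at CPM 0.5 or more in at least 3 libraries, with Benjamini-Hochberg adjustment over these genes and a threshold of 0.05. Since 0.0001 was added before the log, fold changes of low genes are on that scale. On simulated data for TAC Veh against Sham Veh (16218 genes, 200 changed), 58.7% of genes changed by 1 and 13.3% of those changed by 0.5 on the log2 scale passed the adjusted threshold. At an unadjusted p of 0.05 these shares were 93.3% and 61.7%. In the data 22.5% of genes rose and 1.91% fell, so the adjusted threshold was harder to pass in the simulation.

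Other settings tried were TMM factors (30% of ratios and 5% of levels trimmed) or median-of-ratios factors, both coded for this work; totals that exclude the 16 mitochondrial-encoded genes; no filter, or CPM 1 in every library; constants of 0.1 and 1; an unadjusted p of 0.05; a fit to the groups in question alone; run added to the model; and each library omitted in turn. Fits without run 4, alone or with TMM, and TMM with the run were chosen after seeing the data. Genes named were the 9 members, other renin-angiotensin genes that passed or belong to its core, and the 3 genes most like each member called in the Veh arm (mean CPM 5 or more); those most like Agt, given with the other observations, fall outside this rule. Markers of mast cells, neutrophils, endocardium, mesothelium and blood were also summed and are given with the other observations. Members and lists were chosen with earlier results of these data known. Each label names a separate mouse. Coordinates are those of GENCODE vM21, whose starts match the file for all 9 members. Values of 1 gene of the list of other renin-angiotensin genes are not reported here, though it is part of the counts and medians of that list.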

Additional observations from a re-analysis of the deposited data

Results flagged for a closer look

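In groups of 4 to 10 libraries, a library was marked where its gap to the nearest other library took more of the group's range than Dixon's critical value allows; 36 such checks were made over the 9 genes, in the 2 groups of that size and on both the CPM and log2 scales, and chance marks about 1 in 20. All 5 marks fell in Sham Veh. Agt was at 16.2 CPM in S20, far above the other 4 libraries, on the CPM scale but not on the log2 scale. Enpep was high in S5, at 15.4 CPM (3.94 on the log2 scale), and Lnpep was high in the same library, at 122 CPM (6.93 on the log2 scale). Without S5 the change of Enpep with TAC in the Veh arm was 0.33 on the log2 scale. Leaving out each library singly, S5 included, gave 0.10 to 0.42. The difference in the change with TAC between the 29P and Veh arms did not pass its test for any member.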

How the results depend on the processing

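No paired analysis was possible because the groups share no replicate numbers. In the Veh arm, 5 members were called on CPM, 2 with TMM or median-of-ratios factors, 3 with totals that exclude mitochondrial-encoded genes (9.78% of all genes rose, 3.05% fell), 2 with TMM and without run 4 (3.06%, 3.39%), and 2 with TMM and run in the model (4%, 4.58%); leaving out single libraries gave 1 to 5, the lowest without S2. Of the other renin-angiotensin genes 7 were called there, 1 with TMM or median-of-ratios factors, 4 without mitochondrial-encoded genes, 4 with run in the model (19.2% of all genes rose), 2 without run 4 (13.4%), 1 with TMM and without run 4, and 1 with TMM and run; leaving out single libraries gave 0 to 9. In the 29P arm, 6 members were called and 5 with TMM or median-of-ratios factors. With run 4 were called (Ace, Anpep, Atp6ap2 and Prcp), where 4.19% of all genes rose. With TMM and run 0 were called (0.641% rose and 0.327% fell). Leaving out single libraries gave 5 to 7 members, where 6.41% (without S14) to 39.7% (without S4) of all genes rose. The other genes numbered 9 there, 2 with TMM or median-of-ratios factors and 4 without mitochondrial-encoded genes (12.5% of all genes rose). They numbered 0 with run, 2 with TMM and without run 4 (6.84% of all genes rose, 5.94% fell), and 0 with TMM and run. Leaving out single libraries gave 0 to 9 of them. In the Veh arm 2.6% (without S2) to 29.4% (without S14) of all genes rose on such omissions. An unadjusted threshold called 2 members in TAC 29P against TAC Veh and 1 in Sham 29P against Sham Veh, where the adjusted one called 0 in each; the causes were not tested. A filter of CPM 1 in every library kept 8 members and 11 other genes.

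Among the 9 members, the signs that turned were of changes that were not called. For TAC Veh against Sham Veh, Agtr1a was at -0.268 (TMM), -0.262 (median of ratios), -0.093 (without mitochondrial-encoded genes), -0.109 (run), -0.103 (without run 4), -0.433 (TMM, without run 4) and -0.478 (TMM, run). Enpep was at -0.078 (TMM), -0.071 (median of ratios), -0.111 (TMM, without run 4) and -0.014 (TMM, run). Lnpep was at -0.267, -0.260, -0.091, -0.323 and -0.274 with TMM, median of ratios, no mitochondrial-encoded genes, TMM without run 4, and TMM with run, and Agt was at 0.295 without run 4. For TAC 29P against TAC Veh, Agt was at 0.159 (run) and 0.243 (TMM, run), Lnpep at -0.053 (without run 4) and -0.025 (TMM, without run 4), and Prcp at -0.160 (run) and -0.075 (TMM, run). For Sham 29P against Sham Veh, Agt was at 0.638 (without run 4) and 0.699 (TMM, without run 4) and Anpep at 0.004 (TMM, run). The difference between the arms was -0.811 (without run 4) and -0.844 (TMM, without run 4) for Agt, 0.093 (run), 0.029 (without run 4) and 0.155 (TMM, run) for Agtr1a, and -0.008 (run) and -0.026 (TMM, without run 4) for Atp6ap2.

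Leaving out single libraries moved the sign of Ace (-0.430 to 0.050), Agt (-1.327 to 0.327) and Anpep (-0.232 to 0.021) in Sham 29P against Sham Veh, of Agt (-1.180 to 0.474) in TAC 29P against Sham 29P, of Agtr1a (-0.164 to 0.177) in TAC Veh against Sham Veh, and of Agt (-0.576 to 0.577), Anpep (-0.042 to 0.145), Atp6ap2 (-0.274 to 0.038), Lnpep (-0.053 to 0.056) and Prcp (-0.033 to 0.124) in TAC 29P against TAC Veh. The difference between the arms ranged from -0.406 to 1.248 for Agt, from -0.327 to 0.014 for Agtr1a and from -0.031 to 0.281 for Atp6ap2. With TMM and run together Ace in the 29P arm was at 0.890 and did not pass. In the Veh arm Atp6ap2 lost its call in the fit to the groups compared alone (adjusted p = 0.0582) and Prcp with no filter (adjusted p = 0.0515). Groups of 3 limit what could be resolved. Genes simulated with a log2 change of 0.5 for TAC Veh against Sham Veh passed the adjusted threshold in 13.3% of cases and the unadjusted one in 61.7%. Only 200 genes changed in the simulation, so its adjusted threshold was harder to pass than that of the data. CPM values carry no counts, so counting error could not be given.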

Other observations

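The genes whose level followed that of Agt most closely over the 17 libraries, after taking out group means, were Ppargc1a (Pearson's r = 0.94), Tinagl1 (0.92) and Fkbp5 (0.92). They were looked up after the values of Agt had been seen and are a description of libraries that also share runs. Markers of further cell types were summed in each group. Mast cell markers were at 8.31 ± 2.83 CPM in Sham Veh (n = 5), 9.02 ± 1.79 in Sham 29P (n = 3), 15.3 ± 1.40 in TAC Veh (n = 3) and 13.4 ± 2.05 in TAC 29P (n = 6). Of this sum Kit, which other cells also express, made up most, with a mean of 8.11 CPM over all libraries, and each of the other 5 genes was at most 1.94 CPM in any library. Neutrophil markers were at 2.78 ± 1.91, 3.09 ± 2.48, 5.55 ± 0.41 and 7.29 ± 6.28 CPM in the same order. Endocardial markers were at 79.4 ± 39.4, 62.7 ± 19.96, 81.4 ± 11.7 and 84.1 ± 38.8 CPM, and mesothelial markers at 6.84 ± 4.19, 5.85 ± 2.32, 8.92 ± 4.32 and 5.62 ± 1.72 CPM. Red blood cell transcripts were at 1613 ± 636, 1245 ± 599, 3800.5 ± 1039 and 1956 ± 1152 CPM.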
